A study of Mus musculus with 8 samples.

Results

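The comparison of mouse embryonic fibroblasts (MEFs) expressing *EZHIP* with control MEFs was described gene by gene, over the 875 genes of the deposited expression table and in 4 of the 8 sequenced libraries of the series. All 875 genes of the table were taken, since the authors restricted it to genes that differed at least 2-fold between EZHIP and control cells. The direction and the size of that difference therefore chose the genes, and they are given below as a description, with no p-value. The control cells were the parental line, grown from a mid-gestation embryo whose *Eed* alleles carry loxP sites. The EZHIP cells were the same line after transduction with a lentivirus that expresses human *EZHIP* from the EF1a promoter, followed by puromycin selection. A line made in the same way with histone H3.3 K27M, and a single EED-null clone from which Cre had removed *Eed* exons, gave 2 libraries each and are set beside EZHIP only where EZHIP cells differed from them. All 4 groups descend from cells with floxed *Eed* alleles, which Cre had recombined in the EED-null clone. None of the groups is stated to come from more than 1 derivation. The control cells are not stated to carry an empty vector, so the effects of EZHIP and of transduction and selection cannot be told apart.

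Polycomb repressive complex 2 (PRC2) is the enzyme complex that methylates lysine 27 of histone H3. The trimethylated form, H3K27me3, marks and maintains the silent state of genes, above all of developmental regulators whose promoters lie in CpG islands. EZH2 is its catalytic subunit, and EED binds the mark and stimulates the enzyme. EZHIP, a protein normally made in germ cells, holds a short sequence that resembles the H3 K27M mutation of childhood brainstem glioma, binds the active site of PRC2 and lowers H3K27me3. Fibroblasts make and remodel the extracellular matrix and normally keep the regulators of other lineages silent.

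Values are the authors' normalized expression values, which are estimated reads divided by 1 factor per library and are not scaled by gene length. Fold changes compare 1 gene between libraries. Classes of level, differences of means and sums over genes use the values as deposited, so that long genes weigh more in them, and they do not rank genes by RNA molecules. Each pair of values below gives replicate 1 and then replicate 2 of a group (n = 2). Over the listed genes the EZHIP libraries summed to 264279 and 269660 estimated reads and the control libraries to 306290 and 424561. Replicates of a group differed by a median of 0.134 on the log2 scale in control cells and 0.171 in EZHIP cells. The nearest EZHIP and control libraries of a gene lay a median of 1.58 apart. The libraries of the groups did not overlap for any of the 875 genes (100%), which follows from the selection, and nothing is read from it. Human *EZHIP*, *Eed* and the mouse gene for EZHIP are not among the listed genes, so the targeted genes were not checked. Where a group held few reads, folds are given as a lower bound against a floor of 3 reads per library, or as a ratio with its 95% interval in parentheses, which covers counting error only. In bulk RNA, more cells that express a gene and more RNA per cell cannot be told apart.

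Of the 875 genes, 495 (56.6%) were higher and 380 (43.4%) lower in EZHIP cells. With limma, an adjusted p under 0.05 and at least 2-fold called 490 of all genes higher (56.0%) and 377 lower (43.1%), 99.1% in all, as a table selected on this contrast must give. The median gene among the higher ones went from 30.7 in control to 150.2 in EZHIP cells, a median log2 change of 2.08. Among the lower genes, the median gene went from 227 to 67.1, a median log2 change of -1.63. At least 8-fold differences were seen for 149 higher and 42 lower genes, and at least 32-fold differences for 53 and 10. In control cells 40 of the higher genes were listed at 0 in both libraries, whereas 3 lower genes were listed at 0 in both EZHIP libraries. At the edge of the table, *Rasa3*, at 689 and 691 in control and 1408 and 1358 in EZHIP cells, was just inside the limit as a 2.0-fold rise, and *Tmem181a*, at 829 and 788 and 437 and 371, as a 2.0-fold fall. The summed means of all listed genes were alike, 313901 in control and 310094 in EZHIP cells.

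**Figure D1:**
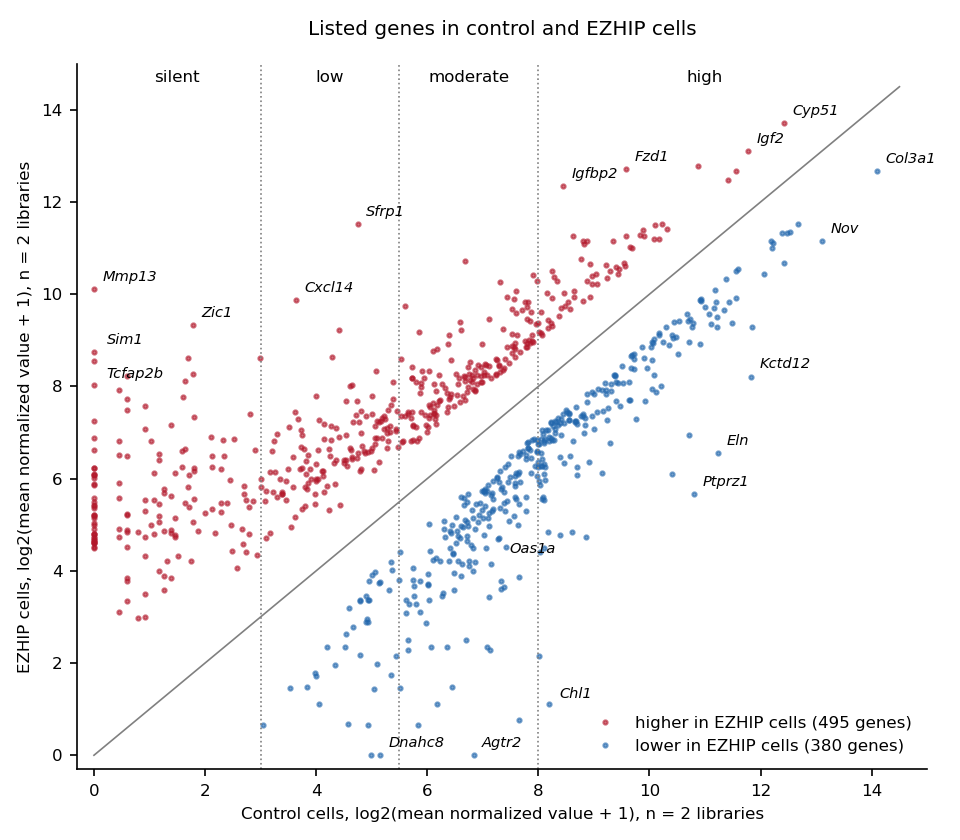
Each point is 1 of the 875 listed genes, placed by its mean over 2 control libraries (horizontal axis) and 2 EZHIP libraries (vertical axis), both as log2(normalized value + 1). The 495 higher genes lie above the diagonal and reach the left edge, where control cells are at 0, and the 380 lower genes lie below it and begin in the class of low control level.

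Genes were divided by their level in control cells. A log2(mean + 1) of at most 3 was called silent, above 3 to 5.5 low, above 5.5 to 8 moderate and above 8 high. The higher genes spread over all 4 classes, with 147 silent, 133 low, 154 moderate and 61 high. None of the lower genes was silent, and 38 were low, 165 moderate and 177 high. The classes share the control value with the change, so the selection bears on both counts and sizes: a gene near 0 in control cells could hardly be listed as 2-fold lower, and 101 of the 147 silent genes were at 3 reads or fewer. The values are a description. The median log2 change of the higher genes was 4.56 for silent, 2.15 for low, 1.41 for moderate and 1.31 for high genes. For the lower genes it was -2.13, -1.84 and -1.40 from low to high. Summed over a class, the silent genes went from 251 to 11942 in normalized value, whereas the 61 high genes went from 47538 to 134173.

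Of the silent genes, the 4 with the largest log2 change encode 2 matrix metalloproteases and 2 transcription factors. *Mmp13* (ENSMUSG00000050578.9, chromosome 9, 7272514 to 7283333, 10 exons), a collagenase of remodelling bone and cartilage, was listed at 0 in both control libraries and reached 1056 and 1160.5 in EZHIP cells, at least 419-fold higher. *Sim1*, a bHLH-PAS regulator of the hypothalamus, was also at 0 in both control libraries and reached 444 and 407, at least 161-fold higher. *Tcfap2b*, which encodes the neural crest and kidney factor AP-2 beta, went from 0 in both libraries to 387 and 363, at least 142-fold higher. *Mmp3*, the gene of stromelysin, reached 272 and 245 from 0, at least 97.7-fold higher. All 4 were listed at 0 in both control libraries, and their EZHIP replicates lay close together.

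Of the 4 genes that led the low class, 3 encode secreted proteins and 1 a cytokine receptor. *Sfrp1*, a secreted antagonist of Wnt proteins on chromosome 8 (chromosome 8, 24521974 to 24560104), was at 31.8 and 19.9 in control and 2858 and 3007 in EZHIP cells, 113-fold higher. *Cxcl14*, a chemokine of skin and connective tissue, went from 10.3 and 12.5 to 947 and 927, 82.1-fold higher. *Il1rl1*, the receptor of interleukin 33, was at 30.8 and 9.6 in control cells, a wide spread, and 604 and 595 in EZHIP cells. *Inhbb*, the activin beta B chain, was at 18.5 and 18.5 and 405 and 394, 21.6-fold higher.

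Among moderate genes, *Itga6*, which encodes a laminin-binding integrin chain, went from 46.2 and 48.7 to 897 and 821. *Axin2*, the negative feedback gene of Wnt signalling, went from 55.4 and 58.3 to 623 and 539. *Zdbf2*, an imprinted gene, was at 107 and 96 in control and 1687 and 1662 in EZHIP cells, 16.5-fold higher. *Steap1*, a metalloreductase gene, was at 46.2 and 44.3 and 362 and 411. Among genes already high in control cells, *Igfbp2*, which binds insulin-like growth factors, rose from 356 and 342 to 5184 and 5225, 14.9-fold higher with a log2 change of 3.90 (SE 0.09). *Fzd1*, a single-exon gene for a Wnt receptor (chromosome 5, 4753842 to 4758216), rose from 776 and 749.9 to 6694 and 6685. *Msln*, the gene of mesothelin, and *Spp1*, the gene of osteopontin, rose 6.23-fold and 5.05-fold. By the difference of means, the rises with the largest difference in deposited value were those of *Cyp51*, *Fzd1*, *Igf2*, *Timp3* and *Igfbp2*. *Igf2*, the fetal growth factor, was at 3589.8 and 3454 in control and 8919 and 8644 in EZHIP cells, and *Timp3*, an inhibitor of metalloproteases bound to the matrix, at 1866 and 1881 and 7071 and 6932.

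The largest falls of low genes ended at or near 0, while of all 38 low genes that fell 13 were at 3 reads or fewer in both EZHIP libraries. *Dnahc8*, which encodes an axonemal dynein, went from 39 and 30.3 to 0 in both EZHIP libraries, at least 9.94-fold lower, and *Filip1*, for a filamin-binding protein, from 26.7 and 34.7 to 0, at least 8.81-fold lower. *Rassf4* held 34.9 and 24.4 in control and 0 and 1.14 in EZHIP cells, while *Gm4902* held 28.7 and 16.8 and 1.18 and 0. In the moderate class *Agtr2*, the type 2 receptor of angiotensin, was at 111 and 116 in control cells and at 0 in both EZHIP libraries, at least 32.5-fold lower. *Rtl1*, an imprinted gene of retrotransposon origin, went from 83.2 and 90.1 to 3.55 and 0. *Gm14430* was at 266 and 136 in control and 0.757 and 0.616 in EZHIP cells, but it belongs to a family of near-identical copies that may share reads, which leaves its value uncertain.

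The largest falls from a high level were in cell surface and matrix genes. *Chl1*, a neural adhesion molecule (chromosome 6, 103460870 to 103699671), fell from 276 and 308 to 1.18 and 1.14, 254-fold (69.9 to 2099) lower. *Eln*, the gene of elastin (chromosome 5, 135179651 to 135223111), fell from 2478 and 2325 to 102 and 83.2, 26-fold lower. *Ptprz1*, the gene of a receptor phosphatase that binds pleiotrophin, fell from 1779 and 1805 to 52.1 and 46.7, 36.3-fold lower. The gene of pleiotrophin itself, *Ptn*, fell from 5518 and 5419.6 to 1475 and 1794. *Cthrc1*, a secreted protein of repair tissue, fell from 280.2 and 235 to 2.37 and 4.56. *Kctd12*, an auxiliary subunit of GABA-B receptors that fibroblasts also express, fell from 3653 and 3658 to 312 and 277. By difference of means, the 5 falls with the largest difference in deposited value were those of *Col3a1*, *Nov*, *Ptn*, *Marcks* and *Kctd12*.

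**Figure D2:**
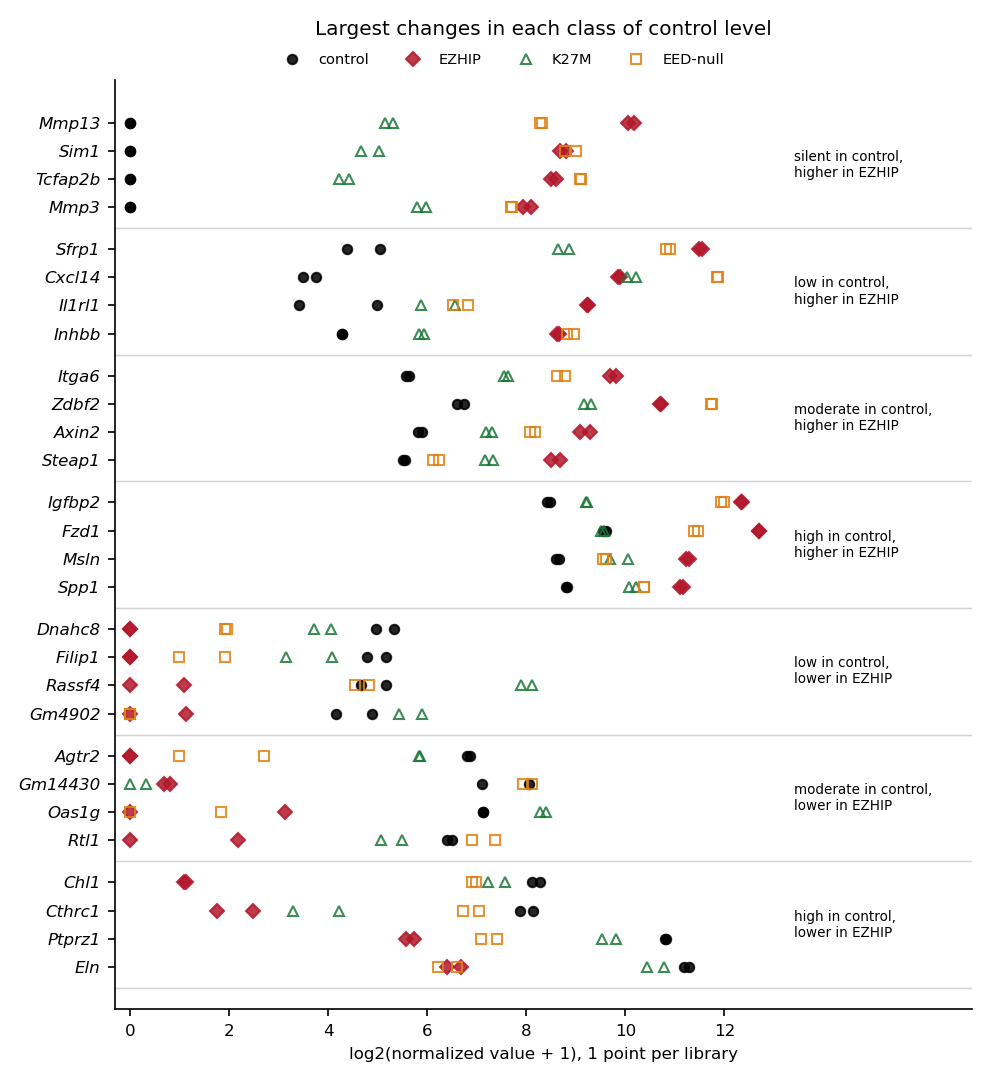
For the 4 genes with the largest log2 change in each class of control level and each direction, each point is the log2(normalized value + 1) of 1 library, with filled symbols for control and EZHIP cells and open symbols for K27M and EED-null cells. The EZHIP points of each gene lie clear of its control points, and those of *Mmp13*, *Sim1*, *Tcfap2b* and *Mmp3* start from 0 in control cells.

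Genes of 18 lists, drawn up by function or by the form of the symbol, covered 459 of the 875 genes, and 416 were in none. Read against 56.0% called higher and 43.1% called lower over the whole table, some lists lay mostly on one side. The counts below describe the listed members only. Members that the authors did not list may be unchanged or too low to be tested, and these cannot be told apart.

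**Figure D3:**
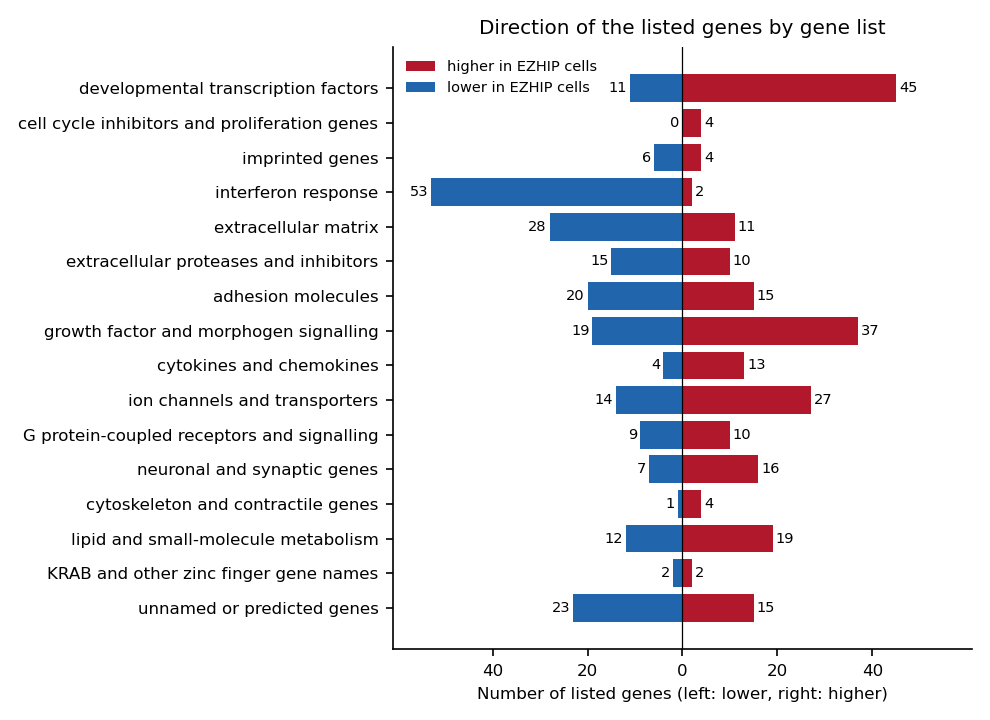
Bars give, for each gene list with at least 4 members in the table, the number of genes higher (right) and lower (left) in EZHIP than in control cells. Developmental transcription factors were mostly higher, 45 of 56, and interferon response genes mostly lower, 53 of 55.

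Developmental transcription factors, the regulators that assign cells to organs and body regions, were mostly higher. Of 388 annotated symbols of the list 56 were in the table, 45 called higher and 11 called lower, and the median log2 change was 3.86 against 1.16 over all listed genes. Of the 45 higher genes 31 were silent in control cells. *Zic1*, a zinc finger gene of the dorsal neural tube, went from 4.11 and 0.738 to 643 and 644. Its relative *Zic2* went from 0 and 0.738 to 228 and 254. *Sox2*, a pluripotency and neural progenitor gene with a single exon, was at 0 in both control libraries and reached 166 and 137, at least 57.1-fold higher. Regulators of unrelated tissues also rose from near 0. The cardiac and gut gene *Gata4* went from 1.03 and 0 to 226 and 197. *Pitx1*, a hindlimb gene, was at 0 and 0.738 in control and 117 and 107 in EZHIP cells. For *Msx1*, a limb and tooth gene, the values were 4.11 and 0.738 and 292 and 318. Homeobox genes of posterior identity were among them, with *Hoxd13* at 0 in control cells and 105 and 88.9 in EZHIP cells. From 0 in both control libraries, the forebrain gene *Otx2* reached 54.4 and 60.4 and the pancreas and spinal cord gene *Nkx6-1* reached 42.6 and 37.6. The motor neuron gene *Isl1* reached 54.4 and 33.1, also from 0.

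The 11 lower members of the list were, in order of their fall, *Heyl*, *Hey1*, *Foxp2*, *Ebf1*, *Hoxc8*, *Esr2*, *Ebf3*, *Lmx1b*, *Mab21l1*, *Hoxa5* and *Alx4*. *Heyl*, a repressor that Notch signalling switches on, fell from 193 and 206 to 20.1 and 6.84. *Hey1*, of the same family, fell from 301 and 249 to 29.6 and 13.7. The Notch ligand gene *Jag1* fell from 1498 and 1428 to 429.6 and 407, 3.5-fold lower, whereas the ligand gene *Jag2* was called higher, with a log2 change of 1.58. *Hey2*, a relative of *Heyl* and *Hey1*, rose from 17.5 and 17 to 66.3 and 46.7. *Foxp2* fell from 80.1 and 96 to 13 and 16.

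EZHIP cells often stood apart from the other PRC2-deficient lines in these genes. The same limma fit called 26.2% of all listed genes higher and 32.6% lower in EZHIP than in K27M cells (58.7% in either direction), and 19.8% higher and 25.1% lower than in EED-null cells (44.9%). The table favours genes that are extreme in EZHIP cells, so that these tests are not free of the selection. Of the 45 higher developmental genes, 25 were higher in EZHIP than in K27M cells and 6 were lower, beside 40% and 17.8% of all 495 higher genes. Against EED-null cells 5 were higher and 22 lower, beside 27.1% and 18.4% of the higher genes. *Sox2* was listed at 0 in both K27M libraries and at 245 and 270.2 in EED-null cells. *Sim1* was at 31.5 and 24.5 in K27M cells, and its log2 difference of EZHIP from K27M was 3.89 (SE 0.15, adjusted p = 5.27e-06 from limma). *Gata4* ran the other way and was at 863 and 960.4 in K27M cells, above both EZHIP libraries (log2 difference -2.10, adjusted p = 0.00112 from limma). *Hoxd13* was at 658 and 658 in EED-null cells, also above EZHIP (log2 difference -2.75, adjusted p = 4.3e-05 from limma).

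The AP-2 genes, which were singled out after their values were seen, are not in that list and showed the same direction. *Tcfap2a* went from 4.11 and 3.69 to 49.7 and 37.6 and *Tcfap2c* from 1.03 and 0.738 to 52.1 and 38.8, beside *Tcfap2b* above. *Tcfap2c* was at 0 and 0.874 in K27M cells and 19.4 and 12.6 in EED-null cells, below EZHIP in both. The 3 genes as a set did not keep this order. Their median log2 change from control was 5.15 for the EED-null clone, 4.61 for the EZHIP line and 0.18 for the K27M line.

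Growth factor and morphogen genes, the signals that pattern embryos, were higher for 37 and lower for 19 of 56 listed members, of which 36 and 19 were called. *Areg*, at 1.03 and 0.738 and 4.73 and 16, was the member that was not called. Among ligands, *Wnt6* rose from 47.2 and 56.8 to 344 and 339.7, and *Wnt4* from 17.5 and 8.86 to 85.2 and 78.7. *Wnt10a* rose from 28.7 and 25.1 to 136 and 117. *Wnt5a*, which acts mainly outside the beta-catenin pathway, fell from 239 and 278 to 54.4 and 67.3. Among receptors, *Fzd1* and *Fzd7* rose, the second not after rescaling on the listed genes, and *Fzd4* and *Fzd8* fell. The antagonists *Sfrp1*, *Grem1*, *Nog*, *Fst* and *Bmper* rose. *Nog*, the BMP antagonist noggin, went from 5.13 and 5.9 to 43.8 and 55.9.

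Of the genes that beta-catenin signalling is known to induce, 6 that rose were singled out after their values were seen. They were *Axin2*, *Nkd2*, *Notum*, *Rnf43*, *Lef1* and *Tcf7*, with a median log2 change of 2.52. They were picked with their direction known, so their number is a description and does not speak for other such genes. *Lef1*, a transcription factor of the pathway, went from 3.08 and 1.48 to 74.6 and 59.1, and *Nkd2*, an inhibitor, from 12.3 and 26.6 to 122 and 148. The R-spondins, secreted enhancers of Wnt signalling, were split. *Rspo2* fell from 1629 and 1718 to 116 and 128 and *Rspo3* from 105 and 119.6 to 9.47 and 20.5, while *Rspo1* went from 1.03 and 0 to 21.3 and 34.2.

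In the Hedgehog pathway *Hhip*, which binds the ligand and limits it, went from 2.05 and 2.21 to 282 and 270.2, 128-fold (54.7 to 397) higher. The receptor gene *Ptch1* rose from 279 and 251 to 840.3 and 722 and the effector *Gli1* from 38 and 40.6 to 137 and 119. The co-receptor gene *Boc* was called lower, with a log2 change of -1.99. *Ptch1*, *Gli1* and *Boc* were picked after their values were seen. All of *Hhip*, *Ptch1* and *Gli1* were higher in EZHIP than in K27M cells, with log2 differences of 3.24, 2.05 and 1.09 (adjusted p = 2.74e-06, 4.86e-05 and 0.000634 from limma). The insulin-like growth factor genes were divided, with *Igf2* and *Igfbp2* higher and *Igf1* and *Igfbp5* lower. *Igf1* fell from 2822 and 2909 to 647 and 670.3 and *Igfbp5* from 3779 and 3601 to 620.2 and 629. *Unc5c*, a netrin receptor gene, fell from 1160.0 and 1212 to 264 and 247, and *Plxna4*, a semaphorin receptor gene, rose from 1.03 and 0.738 to 114 and 154. *Plxna4* was far higher in K27M cells, at 2704 and 3760.0.

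All 4 listed genes of the cell cycle list, of 49 annotated, were higher, and 3 of them promote entry into S phase. The D-type cyclin gene *Ccnd1* rose from 426 and 447 to 1797 and 1661, and *Ccnd2* from 529 and 443 to 1658 and 1576. Their partner kinase gene *Cdk6* rose from 154 and 188 to 1034 and 942. *Cdkn1a*, which encodes the inhibitor p21, rose from 336 and 337 to 847 and 823, a log2 change that went from 1.31 to 0.99 and lost its call when libraries were rescaled on the listed genes. *Ccnd1*, *Cdk6* and *Cdkn1a* were higher in EZHIP than in EED-null cells, with log2 differences of 1.51, 2.03 and 2.20 (adjusted p = 0.000231, 9.05e-05 and 4.76e-05 from limma). *Ccnd2* was at 1821 and 2204 in K27M cells and 1748 and 1713 in EED-null cells, and its differences from EZHIP did not pass the test.

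A group of early response genes, transcription factors and their regulators that growth factors and stress induce within minutes, was also singled out after its values were seen. All 10, *Fos*, *Fosb*, *Jun*, *Egr1*, *Egr2*, *Egr3*, *Ier2*, *Nr4a1*, *Dusp1* and *Atf3*, rose in EZHIP cells, between 2.10-fold and 5.09-fold, but *Jun*, *Egr1*, *Ier2* and *Atf3* lost their calls when libraries were rescaled on the listed genes. *Fos* was at 172 and 202 in control and 1017 and 887 in EZHIP cells, and *Egr1* at 2725 and 2718 and 5857 and 5561. The median log2 change of the 10 was 1.77 in EZHIP cells, and the medians against the same control libraries were 1.79 in K27M and 1.32 in EED-null cells.

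Neuronal and synaptic genes were higher for 16 and lower for 7 of 23 listed members. *Syt13*, a synaptotagmin gene, went from 2.05 and 1.48 to 80.5 and 55.9. *Homer2*, which encodes a postsynaptic scaffold, went from 1.03 and 0.738 to 39.1 and 37.6. *Penk*, the gene of proenkephalin, went from 18.5 and 5.17 to 153 and 157 and was close to 0 in K27M cells, at 0.927 and 1.75. *Ppfia2* and *Stmn2* fell, the latter from 44.1 and 45 to 2.37 and 1.14.

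Ion channels and transporters were higher for 27 and lower for 14 of 41. Of the potassium channel genes, *Kcna1* went from 2.05 and 0 to 111 and 112, and *Kcna6* from 2.05 and 2.21 to 99.4 and 99.2. *Kcnj15* went from 0 in both libraries to 60.4 and 67.3. *Kcnj15* was at 4.64 and 8.74 in K27M cells and at 0 in both EED-null libraries. *Kcnc2* and *Trpv2* fell. *Slc6a2*, the noradrenaline transporter gene, was at 8.21 and 18.4 in control and 3.55 and 0 in EZHIP cells, and it was no longer called without control replicate 2 or EZHIP replicate 2. Of 19 listed genes of G protein-coupled receptors and their signalling, 10 were higher and 9 lower. The 6 cyclic nucleotide phosphodiesterase genes of the table, *Pde1a*, *Pde1c*, *Pde2a*, *Pde3b*, *Pde8b* and *Pde10a*, were all among the higher. *Pde3b*, whose enzyme degrades cyclic AMP in fat and heart, was at 0 and 4.43 in control cells and 373 and 407 in EZHIP cells. The receptor genes *Agtr2* and *Ednra*, for angiotensin and endothelin, were among the lower, with *Ednra* at 99.6 and 106 in control and 3.55 and 5.7 in EZHIP cells.

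The extracellular matrix list went mostly down. Of 39 listed members 28 fell and 11 rose, with a median log2 change of -1.29. *Col3a1*, a fibrillar collagen gene of soft connective tissue and the largest difference of means among the falls, was at 17665 and 17245 in control and 6797 and 6268 in EZHIP cells, 2.67-fold lower. Among its lower members, picked after their values were seen, were genes of elastic fibres, with *Eln* above, *Fbn1* (fibrillin) from 4760.2 and 4715 to 2164 and 1961, and *Mfap2*, *Mfap4* and *Ltbp2* between 2.17-fold and 2.54-fold. Small leucine-rich proteoglycan genes picked in the same way, *Dcn*, *Fmod*, *Aspn*, *Ogn* and *Prelp*, were lower, and *Dcn* was at 364 and 380.1 in control and 129 and 179 in EZHIP cells. *Nov*, a secreted CCN family gene, fell from 8809 and 8885 to 2296 and 2239, whereas its relatives *Cyr61* and *Ctgf* rose 2.18-fold and 2.07-fold, calls that were lost when libraries were rescaled on the listed genes. *Smoc2*, a matricellular protein gene, rose from 7.19 and 6.64 to 412 and 373.

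*Col3a1* and *Dcn* are also the only 2 of 22 fibroblast marker genes that were listed. Summed, they fell from 18030 and 17625 in control to 6926 and 6447 in EZHIP cells. The same sums were 5398 and 5772 for the K27M line and 5802 and 5715 for the EED-null clone, but in the K27M line *Dcn* was above control, at 3192 and 3255, and the sum was low through *Col3a1*, at 2206 and 2517. *Col3a1* was still at 6797 and 6268 in the EZHIP libraries, and the other fibroblast markers are not in the table. Few markers of other cell types were listed, 2 of 11 epithelial, 1 of 11 endothelial, 1 of 10 cartilage and bone and 1 of 13 neural. The epithelial *Epcam* and *Krt14* summed to 6.16 and 3.69 in control and 59.2 and 36.5 in EZHIP cells. The endothelial *Kdr* went from 9.24 and 9.6 to 52.1 and 51.3 and the cartilage gene *Sox9* from 18.5 and 28.8 to 95.9 and 100.3. The neural *Sox2* went from 0 in both libraries to 166 and 137. None of the myeloid, muscle or adipocyte markers was listed. The part of these cell types in the matrix result was not tested.

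Extracellular proteases and their inhibitors were divided, with 10 higher and 15 lower of 25. The rises were led by *Mmp13*, *Mmp3*, *Mmp10* and *Mmp12*, which are neighbours on chromosome 9 and were seen as a block only after their values were known. *Mmp10* went from 1.03 and 0 to 286 and 315 and *Mmp12* from 0 in both libraries to 26 and 45.6. *Mmp13*, *Mmp10*, *Mmp3* and *Mmp12* were higher in EZHIP than in K27M cells, with log2 differences of 4.89, 5.20, 2.13 and 2.32 (adjusted p = 1.38e-06, 2.77e-05, 1.49e-05 and 0.00442 from limma). The rise of the block was not particular to EZHIP. The median log2 change of the 4 genes from control was 7.85 for the EED-null clone, 7.87 for the EZHIP line and 4.10 for the K27M line. Of the ADAM and ADAMTS genes, *Adamts3*, for a procollagen-processing enzyme, fell from 57.5 and 53.9 to 0 and 1.14. *Adam23* fell from 446 and 477 to 27.2 and 23.9, and *Adamts20* from 167 and 162 to 11.8 and 11.4. *Fap*, the fibroblast activation protein, fell from 82.1 and 94.5 to 8.28 and 13.7.

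Adhesion molecules were higher for 15 and lower for 20 of 35. *Igsf11*, an immunoglobulin superfamily gene, rose from 0 to 60.4 and 71.8. *Nfasc*, the gene of neurofascin, went from 0 and 0.738 to 60.4 and 57, and the cadherin gene *Cdh6* from 1.03 and 0 to 43.8 and 29.6. The desmosomal genes *Dsp* and *Pkp1* rose as well. *Icam1* went from 27.7 and 36.2 to 0 and 3.42. Of the 20 lower members, 12 were gamma protocadherins, such as *Pcdhga9* at 101 and 83.6 in control and 22.3 and 12.9 in EZHIP cells. These transcripts share their constant exons and reads can be split among them, so they are uncertain as 12 separate genes.

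Cytokine and chemokine genes were higher for 13 and lower for 4 of 17. Besides *Cxcl14* and *Il1rl1*, the acute-phase gene *Saa3* went from 0 in both libraries to 18.9 and 29.6, and *Ptgs2*, the inducible cyclooxygenase, from 74.9 and 67.2 to 436 and 464. *Lif* went from 39 and 39.1 to 157 and 123. The complement genes *C1s* and *C1ra*, with *C1qtnf5* and *Cxcl16*, were the lower ones, *C1s* at 939 and 967 and 353 and 432.

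Lipid and small-molecule metabolism genes were higher for 19 and lower for 12 of 31. Genes that handle retinoids were found on both sides. *Rdh10*, whose enzyme makes retinal, rose from 57.1 and 52.4 to 282 and 267. *Crabp1*, which encodes a binding protein of retinoic acid, rose from 465 and 467 to 2344 and 2217. *Cyp26b1*, whose enzyme degrades retinoic acid, rose from 15.4 and 10.3 to 61.5 and 49, while the retinal reductase gene *Dhrs3* was 2.22-fold lower. *Crabp1* was higher in EZHIP than in K27M cells, where it was at 45.4 and 54.2 (log2 difference 5.49, adjusted p = 1.38e-06 from limma). *Aldoc*, a glycolytic aldolase gene, fell from 139 and 143 to 13 and 20.5. *Car9*, a carbonic anhydrase gene that hypoxia induces, fell from 109 and 123 to 13 and 21.7. Of genes of sterol synthesis and its control, singled out after their values were seen, *Lss* fell from 2695 and 2608 to 1301 and 1259.5, *Sc5d* from 1926 and 1990.0 to 939.8 and 895 and *Insig1* from 4746 and 4846 to 2177 and 2238. *Cyp51*, an enzyme gene of the same synthesis, rose 2.46-fold, from 5397 and 5532 to 13141 and 13707, and its call was lost when libraries were rescaled on the listed genes.

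Imprinted genes, expressed from 1 parental allele, went both ways, with 4 higher and 6 lower of 10. *Zdbf2*, *Sfmbt2*, *Peg3* and *Igf2* rose, and *Peg3* went from 424 and 482 to 2259 and 2111. *Dlk1*, a Notch-like inhibitor of fat cell formation, fell from 1434 and 1284 to 61.5 and 74.1, 20-fold lower, as did its neighbour *Rtl1* in the same imprinted domain of chromosome 12. *Mest* fell from 2413 and 2349 to 746 and 710.2, and *Plagl1* from 4201 and 4335 to 1403 and 1358. *Dlk1* was lower in EZHIP than in K27M and EED-null cells (log2 differences -3.63 and -2.98, adjusted p = 5.86e-06 and 4.45e-05 from limma).

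Of the 34 annotated symbols in the list of Polycomb and H3K27 enzyme genes, 2 were in the table. Related genes outside that list were not counted. *Pcgf5*, a subunit of variant PRC1, rose from 82.1 and 65.7 to 205 and 209.8, and *Phf19*, an accessory subunit of PRC2, fell from 311 and 275 to 112 and 123. *Phf19* was lower in EZHIP than in K27M cells (log2 difference -1.49, adjusted p = 7.16e-05 from limma). The remaining short lists held few genes. Cytoskeletal and contractile genes were higher for 4 and lower for 1, with *Krt14*, a basal keratin, going from 0 in both libraries to 37.9 and 26.2 and *Ankrd1*, a target of YAP, from 98.5 and 105 to 272 and 312. Zinc finger gene names were higher for 2 and lower for 2. *Zfp423* rose from 28.7 and 19.9 to 149 and 147. *Zfp612*, at 27.7 and 36.9 in control and 20.1 and 9.12 in EZHIP cells, was no longer called without control replicate 2 or EZHIP replicate 2, and *Zfp36*, at 159 and 154 and 318 and 370.5, lost its call after rescaling. The germline gene *Tex15* fell from 181 and 171 to 32 and 34.2. Unnamed or predicted genes were higher for 15 and lower for 23 of 38, with *1810011O10Rik* at 15.4 and 17.7 and 136 and 155 and *Gm7609* at 73.7 and 69.1 and 1.18 and 1.14.

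Interferon response genes formed the list with the most falls. Interferons are secreted on viral infection and induce, through STAT and IRF factors, genes that detect viral RNA, block its translation and present antigen. Of 177 annotated symbols 55 were listed, 53 lower and 2 higher, all called, with a median log2 change of -1.53. Of the 53 lower genes 35 were high and 16 moderate in control cells, beside 177 and 165 of all 380 lower genes. A gene near 0 in control cells could hardly be listed as lower, so the selection bears on these counts. Antiviral effectors led the falls. *Oas1a*, whose enzyme makes the second messenger of RNA decay, fell from 419 and 354 to 34.3 and 20.7. *Mx1*, a GTPase gene that blocks influenza viruses, fell from 99 and 93.6 to 10.7 and 17.1. *Oas2* fell from 210.4 and 229 to 39.1 and 37.6. *Oas1g*, at 138 and 139 in control and 0 and 7.8 in EZHIP cells, is nearly identical to *Oas1a* in sequence, and reads can be split between them. Among sensors of viral RNA, *Ifih1* (MDA5) fell from 645 and 699 to 276 and 267, and its regulator *Dhx58* from 275 and 271 to 49.7 and 41. The endosomal sensor gene *Tlr3* fell from 153 and 159 to 69.8 and 50.2. The transcription factors *Stat2* and *Irf7* fell 2.45-fold and 2.54-fold. In antigen presentation *H2-K1*, a class I heavy chain, fell from 5942 and 5814 to 2637 and 2542 and the peptide transporter gene *Tap1* from 857 and 838 to 387 and 386. The nuclear body gene *Sp100* fell from 341 and 329.8 to 24.3 and 28.5, and *Sp110* from 64.7 and 67.9 to 4.73 and 3.42. The 2 higher members were *Ifitm1*, at 21.6 and 26.6 and 85.2 and 84.4, and *Ly6c1*, at 130.4 and 110.0 and 348 and 353.

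Against K27M cells 52 of the 53 lower interferon genes were called lower in EZHIP cells, beside 51.8% of all 380 lower genes and 32.6% of all listed genes. *Oas2* was at 1411 and 1606 in K27M cells, a log2 difference of -5.26 (SE 0.27, adjusted p = 1.35e-05 from limma). Against EED-null cells 16 of the 53 were called higher and 3 lower in EZHIP cells, beside 10.3% and 33.9% of the lower genes. *Oas2* was at 2.77 and 5.81 in EED-null cells, below both EZHIP libraries (log2 difference 2.96, adjusted p = 0.000235 from limma), and *Sp100* was at 2.77 and 1.94.

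The direction of the listed genes was not even along the genome. On chromosome 13, 25 of 31 listed genes were higher (80.6%), and on chromosome 9, 16 of 58 (27.6%), beside 56.6% over all. Chromosome 5 held the most listed genes by number, 67, of which 49 were higher, but it also has 1309 annotated protein-coding genes. Relative to these, higher genes came to 3.74% on chromosome 5, below the 4.45% of chromosome 18. Runs of at least 5 listed genes of 1 direction, with no more than 1 Mb between neighbours and no listed gene of the other direction between them, were sought after the values had been seen, and 7 were found. The longest lay at the start of chromosome 5, from 3343893 to 5749326, where 15 of 24 annotated protein-coding genes were listed and all 15 were higher. A second run, from 8046078 to 9161776, held 5 of 11 genes, again all higher.

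The 20 genes of both runs include *Cdk6*, *Fzd1*, *Steap1* and *Cyp51*, named above, and *Krit1* (vascular integrity), *Akap9* (centrosome scaffold) and *Dbf4* (activator of a replication kinase). The changes lay between 2.02-fold and 8.77-fold with a median of 2.76-fold, and 12 of the 20 were already high in control cells. *Gatad1* was at 629 and 664 in control and 2158 and 2378 in EZHIP cells, *Akap9* at 1048 and 1134 and 2881 and 2889, and *Krit1* at 354 and 383 and 893 and 919.9. EZHIP cells were called higher than K27M cells for 16 of the 20 and higher than EED-null cells for 17, beside 38.3% and 24.6% of the 475 other higher genes, and lower than either for none. Relative to the same control libraries, the median log2 change of the 20 was 1.46 for the EZHIP line, 0.18 for the K27M line and 0.21 for the EED-null clone. *Akap9* was at 1499 and 1658 in K27M cells and 1400.2 and 1288 in EED-null cells, and *Steap2*, at 749 and 769.9 in control and 2468 and 2420.1 in EZHIP cells, was at 1032 and 968 and 699 and 686. The number of copies of the region was not measured, and from RNA a change in copies and a change in transcription cannot be told apart, also for *Cdk6*, *Fzd1*, *Steap1* and *Cyp51* where they are described above. After rescaling on the listed genes 6 of the 20 were no longer called. On the rest of chromosome 5, 29 listed genes were higher and 18 lower.

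**Figure D4:**
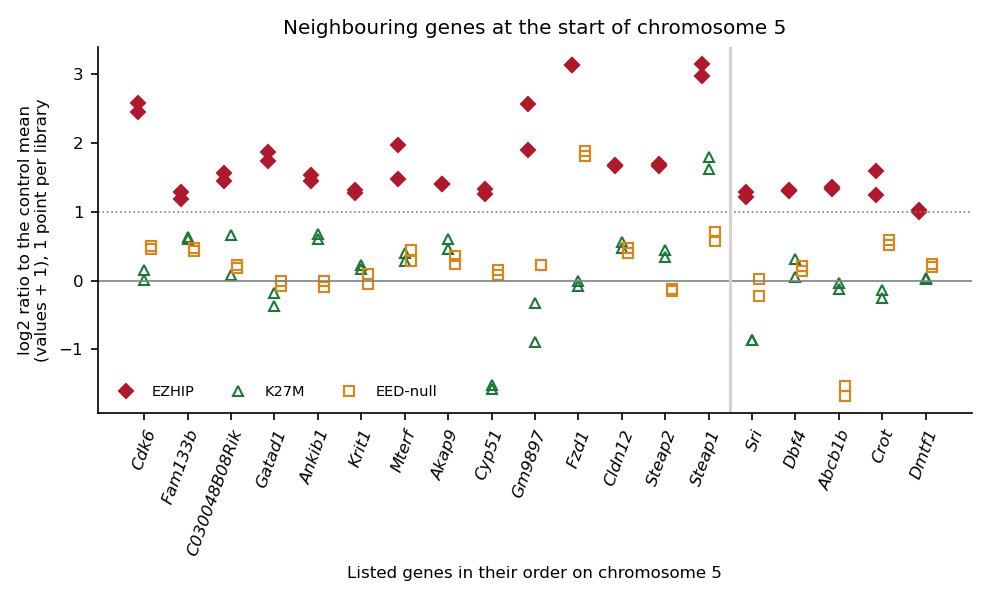
For 19 of the 20 listed genes at the start of chromosome 5, in their order along it, each point is the log2 ratio of 1 library to the control mean, with 1 added to values. A grey line parts the runs, with 14 genes shown of the first and 5 of the next. The EZHIP points of all 19 genes shown lie on or above the dotted line at 1, which stands for 2-fold, while most K27M and EED-null points lie near 0.

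The other 5 runs held 5 listed genes each. On chromosome 17, *Cacna1h*, *Msln*, *Fam195a*, *Nme4* and *Dusp1* were higher, among 43 protein-coding genes of the interval, and *H2-K1*, *H2-DMb1*, *Tap1*, *Psmb8* and *Tap2* of the major histocompatibility complex were lower, among 18. A run on chromosome 18 held *Gm4951*, *Gm4841*, *F830016B08Rik*, *Iigp1* and *Arsi*, all lower and mostly interferon-inducible GTPase genes. *Mamdc2*, *Pip5k1b*, *Pgm5*, *Dock8* and *Kank1* on chromosome 19 were higher, and *Maml2*, *Sesn3*, *Endod1*, *Fut4* and *Slc36a4* on chromosome 9 were lower. Of the 7 runs, only the first on chromosome 5 had more than 50% of its annotated protein-coding genes listed.

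Promoters were compared by their sequence, from 250 bases before to 50 bases after the annotated gene start in mm9, for 850 of the 875 genes. A promoter was called rich in CpG at an observed over expected CpG ratio of at least 0.6 and a GC content of at least 50%. By this measure 60.0% of 488 higher and 35.9% of 362 lower genes had a CpG-rich promoter, beside 42.1% of the 22030 protein-coding genes of the annotation. The share was above that background in each class of control level for the higher genes, from 51.4% of silent to 69.3% of moderate genes. It was below it in each class for the lower genes, from 30.1% of moderate to 40.7% of high genes. Of the developmental transcription factors 33 of 45 higher members had such a promoter (73.3%), and 27 of 37 higher growth factor and morphogen genes (73.0%). Of the lower developmental factors 6 of 10 had one (60%). Some lists ran against the general pattern. Higher adhesion and cytokine genes were at 33.3% of 15 and 38.5% of 13, below the background, and protease and inhibitor genes were at 40% of 10 higher and 53.3% of 15 lower members. Interferon response genes were at the other end, with 4 of 52 lower members (7.69%). They count among the 362 lower genes, 130 of which had a CpG-rich promoter, and pull the 35.9% down. The share without them, in all or by class, was not computed. The values therefore do not show that the other lower genes are poor in CpG. The median number of CpG per promoter was 12 for the lower genes, beside 11 for all protein-coding genes and 20 for the higher genes. A background limited to genes expressed in fibroblasts was not used here.

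**Figure D5:**
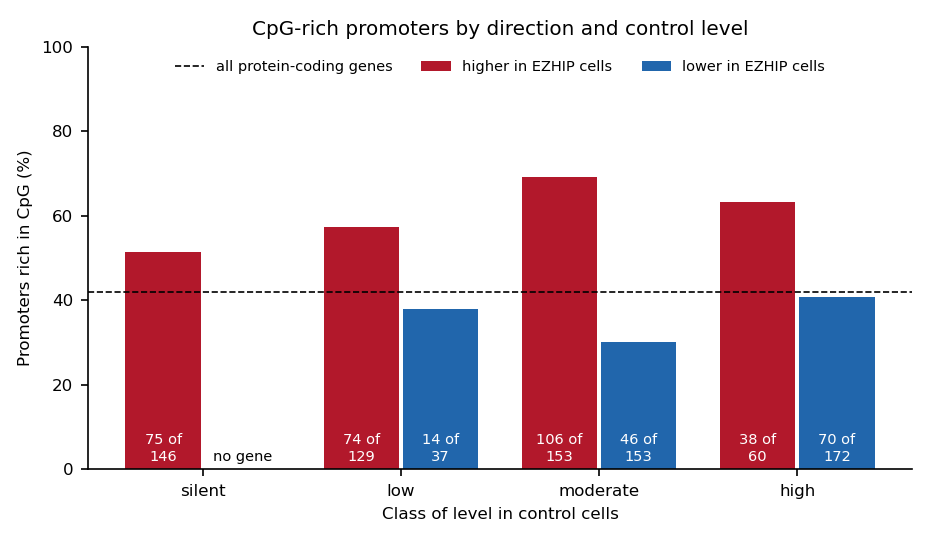
Bars give the percentage of promoters rich in CpG among the listed genes, by class of control level and direction in EZHIP cells, with the number of promoters in each bar. All bars of higher genes stand above the dashed line of 42.1% for all protein-coding genes, and all bars of lower genes, which include the interferon response genes, stand below it.

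To show what this measure separates, the 250 bases before the start of 4 named genes are given with each CpG in capitals. They are the 2 genes of each direction with the most CpG dinucleotides among the named genes, *Pde3b* and *Homer2* for the rises and *Kctd12* and *Adamts3* for the falls. Rich promoters thus occurred in both directions, and the 45 CpG of *Pde3b* stood beside the 41 of *Kctd12*.
Pde3b promoter, mm9 chr7:121558545-121558794, plus strand: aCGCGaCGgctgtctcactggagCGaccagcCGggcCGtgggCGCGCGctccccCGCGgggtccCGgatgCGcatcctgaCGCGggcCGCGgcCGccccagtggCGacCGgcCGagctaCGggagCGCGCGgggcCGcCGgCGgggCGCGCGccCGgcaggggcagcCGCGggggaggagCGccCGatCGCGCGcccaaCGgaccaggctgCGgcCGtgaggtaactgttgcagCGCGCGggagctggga
Homer2 promoter, mm9 chr7:88851812-88852061, minus strand: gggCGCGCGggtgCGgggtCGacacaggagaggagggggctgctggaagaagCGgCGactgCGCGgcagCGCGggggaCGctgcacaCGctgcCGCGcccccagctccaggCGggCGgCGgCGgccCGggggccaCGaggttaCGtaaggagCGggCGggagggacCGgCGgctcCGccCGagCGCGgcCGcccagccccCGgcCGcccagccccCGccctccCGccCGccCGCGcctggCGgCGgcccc
Kctd12 promoter, mm9 chr14:103381746-103381995, minus strand: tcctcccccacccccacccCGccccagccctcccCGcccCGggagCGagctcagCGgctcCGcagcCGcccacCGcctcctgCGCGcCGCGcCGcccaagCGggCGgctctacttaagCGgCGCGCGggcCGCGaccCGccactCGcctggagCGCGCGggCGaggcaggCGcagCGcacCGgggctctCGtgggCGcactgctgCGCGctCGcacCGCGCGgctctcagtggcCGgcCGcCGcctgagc
Adamts3 promoter, mm9 chr5:90312360-90312609, minus strand: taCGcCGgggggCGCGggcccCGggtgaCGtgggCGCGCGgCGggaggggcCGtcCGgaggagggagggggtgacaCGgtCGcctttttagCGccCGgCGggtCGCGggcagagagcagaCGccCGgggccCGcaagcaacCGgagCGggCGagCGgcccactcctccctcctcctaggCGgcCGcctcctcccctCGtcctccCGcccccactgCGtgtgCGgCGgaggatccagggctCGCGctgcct

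For the interferon response, the promoters of *Oas1g* and *Oas1a* are given, the 2 named interferon genes with the largest falls whose promoter holds GAAANNGAAA on either strand, the core of the element that STAT and IRF proteins are known to bind. Each holds 2 matches that overlap, in capitals, which begin 18 and 12 bases before the gene start. These promoters held 4 and 3 CpG in the 250 bases.
Oas1g promoter, mm9 chr5:121337623-121337872, minus strand: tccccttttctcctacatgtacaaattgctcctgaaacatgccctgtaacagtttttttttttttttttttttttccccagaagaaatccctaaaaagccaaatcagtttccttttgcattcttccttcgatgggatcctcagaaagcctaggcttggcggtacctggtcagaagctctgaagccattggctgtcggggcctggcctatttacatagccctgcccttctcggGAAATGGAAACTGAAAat
Oas1a promoter, mm9 chr5:121357537-121357786, minus strand: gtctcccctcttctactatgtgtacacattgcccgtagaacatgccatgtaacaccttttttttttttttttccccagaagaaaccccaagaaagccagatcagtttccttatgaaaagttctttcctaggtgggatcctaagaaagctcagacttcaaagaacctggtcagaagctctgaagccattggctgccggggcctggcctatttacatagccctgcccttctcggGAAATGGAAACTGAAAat
The letters GAAANNGAAA were found on either strand in 16 of the 52 promoters of lower interferon genes (30.8%), in 9.39% of the promoters of all lower genes, 2.87% of those of higher genes and 3.36% of all protein-coding genes. A match is a description of the sequence and not a bound site.

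Of the 147 silent genes that were higher, 66 were called higher and 37 lower in EZHIP than in K27M cells, and 33 higher and 42 lower than in EED-null cells. Of the 61 high genes that were higher, 32 were called higher in EZHIP than in K27M cells and 28 higher than in EED-null cells, and 1 lower in each comparison. Over all 495 higher genes, 40% were called higher and 17.8% lower than in K27M cells, and 27.1% and 18.4% than in EED-null cells. The 61 high genes include 12 of the 20 at the start of chromosome 5. Of those 20 genes, 16 were called higher than in K27M and 17 higher than in EED-null cells. *Igfbp2* was at 588 and 594 in K27M cells and 3891 and 4088 in EED-null cells, and *Msln* at 823 and 1057 and 776 and 751. Of the 28 lower members of the matrix list, 9 were called higher and 6 lower in EZHIP than in K27M cells, beside 8.16% and 51.8% of all lower genes. *Col3a1* was at 2206 and 2517 in K27M cells, lower still than in EZHIP cells (log2 difference 1.47, adjusted p = 5.55e-05 from limma), and *Rspo2* was at 48.2 and 49.6. *Dcn* was the reverse, at 3192 and 3255 in K27M cells (log2 difference -4.40, adjusted p = 4.72e-06 from limma). *Chl1* was at 149 and 189 in K27M cells and 126 and 119 in EED-null cells, so that its near absence was seen in EZHIP cells alone among the 4 lines (log2 differences -6.29 and -5.84, adjusted p = 1.38e-06 and 6.46e-06 from limma).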

How the data were processed

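RNA of 8 MEF libraries, 2 per group, was measured by sequencing after removal of ribosomal RNA, with RNA of FFT cells added to each sample. The authors aligned the reads to an mm9 transcriptome and estimated reads per gene with RSEM 1.2.4, per the labels, and tested genes with EBSeq. The deposited signal is the normalized expression value of each gene and library, the estimated reads divided by 1 factor per library. Whether the added RNA entered these factors is not given in the sources used here, so a change in total RNA per cell may not show. The table holds only genes the authors selected on EZHIP against control. All its value columns were used, and it holds no fold changes of the authors.

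Within a library each value was a multiple of 0.01 of what 1 read is worth, and 72.2% to 82.5% were whole reads (within 0.005 reads), so no count model was fitted. Estimated reads on the listed genes ranged from 209390 to 424561 per library, and the total depth is not known. Groups were taken from the sample titles. limma 3.58.1 (R 4.3.3) was fitted on log2(value + 1) over all 8 libraries with 1 mean per group, and genes were called at a Benjamini-Hochberg adjusted p under 0.05 over the 875 genes and at least 2-fold. It was tested on simulated data whose levels were set above those measured in control cells, so that test does not cover genes near 0. An exact permutation test of 2 against 2 libraries cannot go below 0.333, and nothing says that replicates were separate cultures, so p-values measure only the spread between these libraries. Folds are ratios of group means, and log2 changes are on the log2(value + 1) scale, which understates changes of low genes. Positions, gene starts and promoters came from the mm9 genome and its GENCODE annotation, which placed 850 names at 1 locus and 6 at several, and lacked 19. Python 3.11.15, pandas 2.3.3, numpy 2.4.6, scipy 1.17.1 and matplotlib 3.10.9 were used.

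Named genes are, in each class of control level and direction, the 4 called genes with the largest log2 change whose libraries did not overlap, the 5 of each direction with the largest difference of means, and the 3 of each list and direction with the largest log2 change. Printed promoters are the 2 of each direction with the most CpG and 2 interferon genes with the motif. Other genes in the text illustrate a list, a chromosomal run or a group chosen after their values were seen. The members, the 18 lists and the rules were chosen with earlier results of these data known. Alternatives were the removal of each library in turn, a fit of the 2 groups compared alone, pseudocounts of 0.1 and 5, a minimum mean of 5, a replicate block, a rescaling to the listed genes, a trend on expression, the adjusted p alone and a stricter CpG limit. ChIP-seq data were not analysed here. Values of a few single genes are not reported here.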

Additional observations from a re-analysis of the deposited data

How the results depend on the processing

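Leaving out each library in turn gave 469 to 490 genes higher and 346 to 376 lower than control (490 and 377 with all libraries). For EZHIP above K27M it gave 220 to 231 and for EZHIP below K27M 266 to 286 (229 and 285). Above EED-null the range was 162 to 174 and below it 190 to 220 (173 and 220). With the adjusted p alone, 275 genes were higher in EZHIP than in EED-null cells, since the 2-fold limit was dropped. Rescaling on the listed genes lowered the median log2 change of all 875 genes by 0.32, to 0.84, and turned the split against control to 394 higher and 380 lower (50.9% higher of those called, beside 56.5%), while 495 genes stayed higher by sign. Of the higher genes 96 lost their call in this way, and 0 of the lower ones. With a pseudocount of 5, 116 instead of 147 genes were silent. Of 1455 recomputed log2 changes of the 112 named genes, 0 reversed and 7 lost the call, in *Cyp51* (0.98 after rescaling), *Zfp36* (0.81 after rescaling), *Slc6a2* (-2.11 without control replicate 2 and -1.56 without EZHIP replicate 2) and *Zfp612* (-0.98 with a pseudocount of 5, -0.97 without control replicate 2 and -0.64 without EZHIP replicate 2). Of 468 recomputed list counts 4 moved by over 1.5 times, all in the zinc finger list of 4 genes. Under a stricter CpG limit (ratio of at least 0.75, GC of at least 55%), 41.8% of higher, 22.9% of lower and 27.4% of all promoters were rich in CpG.

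Replicate numbers are shared by the groups, but nothing says that a number marks a batch, and deviations of same-numbered libraries correlated between -0.090 and 0.11, so the numbers were not taken to pair the libraries. With the replicate block, 491 genes were higher and 376 lower than control, 229 and 284 than K27M, and 172 and 217 than EED-null. Values rest on at most 424561 reads per library, and genes at a few reads carry the wide intervals printed beside them. No line is stated to come from more than 1 derivation, so differences between lines and between treatments cannot be told apart.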

Other observations

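Of the 416 genes in no list, 261 were higher and 155 lower in EZHIP cells, and the genes below were picked from them after their values were seen, so they are a description only. Further developmental regulators, outside the fixed list by their symbols, rose from near 0 in control cells. *Sp8*, a limb and forebrain regulator, went from 1.03 and 0 to 182 and 177. *Vax2*, a ventral eye homeobox gene, went from 0 and 0 to 36.7 and 34.2, and *Dmbx1*, a midbrain homeobox gene, from 0 and 0 to 69.8 and 65. *Chd7*, the chromatin remodeller mutated in CHARGE syndrome, was at 2.05 and 2.95 in control and 187 and 136 in EZHIP cells. *Lrp2*, the gene of the endocytic receptor megalin, went from 1.03 and 0.738 to 208 and 172. Among the falls, *Auts2*, a neurodevelopmental gene whose product can join a variant of Polycomb repressive complex 1, was at 124 and 144 in control and 3.55 and 4.56 in EZHIP cells, and the ETS factor gene *Fli1* was at 114 and 100.4 and 21.3 and 13.7.

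Genes known from mesothelium, the lining of the body cavities, were present among the higher genes beside *Msln*. *Wt1*, a regulator of mesothelium and kidney, went from 0 and 0.738 in control to 26 and 31.9 in EZHIP cells, and was at 1013 and 1277 in the K27M line and 58.2 and 62 in the EED-null clone. *Upk3b* went from 13.3 and 17.7 in control to 162 and 145 in EZHIP cells, and was at 2065 and 2699.7 in the K27M line and 29.1 and 32 in the EED-null clone. *Upk1b* was at 0 and 0 in control and 29.6 and 38.8 in EZHIP cells, and *Prg4*, the gene of lubricin, at 12.3 and 17.8 and 256 and 185. No list of mesothelial markers had been drawn up, so how many of them were not listed was not counted.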
